A study of Homo sapiens with 2 samples.

Results

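The EGR genes EGR1, EGR2, EGR3 and EGR4 and the NR4A genes NR4A1, NR4A2 and NR4A3 encode early response transcription factors. They were taken by gene symbol, which gave 7 of the 12445 genes that at least 1 probe of the array named. The 7 genes had 9 probes, of which 7 gave a value on both arrays, so that 6 genes could be followed. EGR4 had 1 probe with no value at either time, and of the 2 NR4A3 probes 1 gave values. The tested cells were 293T cells exposed to 10 µM Y27632, which blocks ROCK1 and ROCK2, for 3 h or for 6 h. In each case they were set against untreated 293T cells, whose time is given as 0 h, on 1 dual-colour array per time. 293T is a single established human embryonic kidney line, grown here in medium with serum for all groups. Untreated RNA carried Cy5 and treated RNA carried Cy3 on both arrays, without a dye swap. Inhibitor, time in culture and handling cannot be told apart in this design. Both array titles carry the word control with the time and do not name the inhibitor. The treatment was read from the source name and agent of the Cy3 channel. Whether a single control RNA served both arrays is not stated.

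EGR proteins bind GC-rich sites through C2H2 zinc fingers. Their genes are switched on within minutes by serum, growth factors and stress, in large part through serum response factor (SRF) and its ELK cofactors at CArG boxes, and the corepressors NAB1 and NAB2 hold EGR activity down. NR4A proteins are orphan nuclear receptors that act without a known physiological ligand. They bind the NBRE element as monomers, and some of them pair with RXR receptors. The NR4A genes respond to CREB and MEF2 factors. ROCK kinases control actomyosin contraction, and the actin state in turn governs the MRTF cofactors of SRF. The ratios below are therefore given from these regulators through the factors themselves to their partners and targets.

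Each value is a log ratio of the channels, read here as log2, with the sign as deposited. The numerator of the ratio is not stated in the sources used here, so a positive value is not called a rise and a negative value is not called a fall. Each time has 1 array, so no value has a replicate or a p-value. The spread between different probes of a gene, over 572 genes with several probes, is the only error available (SD 0.31 at 3 h, 0.33 at 6 h and 0.30 for the difference of the times). It leaves out the spread between cultures. Across all measured genes (10810 at 3 h, 10716 at 6 h) the SD was 0.36 at each time, and the median gene lay at 0.02. The arrays give ratios and no levels, so the identity of the cells could not be checked from the level of markers. Of 20 markers of kidney, neural, fibroblast, endothelial and blood cells, 12 of 16 measured were negative at 3 h and 11 of 15 at 6 h, with medians of −0.20 and −0.15. The part of these marker ratios in the results below was not tested.

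The promoters of the genes whose ratios had opposite signs at the 2 times are shown first, because the known inputs of both families act at motifs close to the start site. Both EGR2 ratios and the 6 h ratio of NR4A3 lay closer to 0 than the SD between probes, so their change of sign is not resolved. A link between the motifs and the signs was not tested. Sequences are from RefSeq (GRCh38.p14), 250 bases before to 50 bases after an annotated start, 5′ to 3′ on the gene's strand. Capitals mark CArG boxes, the element that SRF binds, and the CRE core TGACG on either strand, the element of CREB and ATF factors. EGR1 lies on the plus strand (chr5:138465229-138465528), the EGR2 window on the minus strand (chr10:62816317-62816616) and NR4A3 on the plus strand (chr9:99821635-99821934).
EGR1: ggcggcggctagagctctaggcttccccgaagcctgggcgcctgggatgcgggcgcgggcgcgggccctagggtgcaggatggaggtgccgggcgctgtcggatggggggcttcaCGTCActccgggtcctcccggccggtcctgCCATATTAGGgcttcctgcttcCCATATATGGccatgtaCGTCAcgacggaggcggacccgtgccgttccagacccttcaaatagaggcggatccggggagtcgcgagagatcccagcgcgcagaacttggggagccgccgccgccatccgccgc
EGR2: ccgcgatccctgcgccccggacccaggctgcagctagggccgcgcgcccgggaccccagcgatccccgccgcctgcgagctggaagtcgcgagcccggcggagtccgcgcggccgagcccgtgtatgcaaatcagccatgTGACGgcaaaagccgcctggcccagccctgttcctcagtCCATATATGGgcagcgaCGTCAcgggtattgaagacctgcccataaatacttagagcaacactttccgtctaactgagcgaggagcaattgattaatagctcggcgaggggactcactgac
NR4A3: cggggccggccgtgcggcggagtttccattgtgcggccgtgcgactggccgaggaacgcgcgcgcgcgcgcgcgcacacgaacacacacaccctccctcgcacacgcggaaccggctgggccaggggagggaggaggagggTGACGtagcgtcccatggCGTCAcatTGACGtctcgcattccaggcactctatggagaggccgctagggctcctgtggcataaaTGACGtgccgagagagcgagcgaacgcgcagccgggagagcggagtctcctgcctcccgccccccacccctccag

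EGR1 held 2 CArG boxes, at −105 to −96 and −83 to −74 from the start, between CRE cores at −135 and −66. The EGR2 window held 1 CArG box at −71 to −62, again between CRE cores, at −110 and −54. NR4A3 held 4 CRE cores, at −109, −91, −83 and −25, and no CArG box. In all, 8 windows of 5 of the 7 genes were available (EGR1, EGR4 and NR4A3 with 1 each, NR4A1 with 2 and EGR2 with 3), and EGR3 and NR4A2 are not shown. CRE cores were found in 4 of the 8 windows, those above and the one of EGR4, against 24.6% of 35116 human promoter windows of the same length. CArG boxes were found in 2 of 8, against 1.29%. Both motifs stood together in the EGR1 window and in 1 EGR2 window, and in 0.273% of all windows. The full palindromic CRE TGACGTCA (1.85% of windows), the EGR sites GCGGGGGCG (5.07%) and GCGTGGGCG (0.795%), and the NR4A element AAAGGTCA (1.22%) were in none of the 8. Nor was TATAAA (11.5%). The GC box GGGCGG of SP1 was in 5 of 8, against 45% of windows. All motifs were searched on both strands, a palindrome counted once, and the full CRE contains the core. A match describes these letters only.

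**Figure D1:**
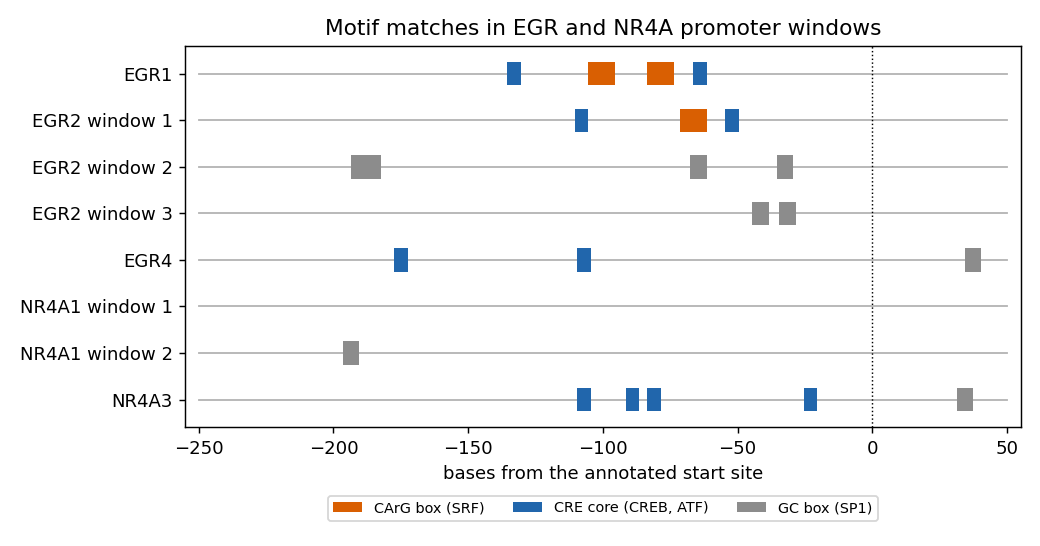
Positions of CArG boxes (orange), CRE cores (blue) and GC boxes (grey) in the 8 promoter windows of 5 EGR and NR4A genes, in bases from the annotated start site (dotted line). CArG boxes are seen in EGR1 and in the first EGR2 window, each flanked by CRE cores, and NR4A3 has 4 CRE cores.

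EGR1 was the gene of the set with the widest swing between the arrays. Its log ratio was 0.43 at 3 h (probe H200019156), a 1.35-fold difference, and −0.68 at 6 h, a 1.60-fold difference on the other side of 0. At 3 h, 1109 of 10810 genes had a higher value, and at 6 h 304 of 10716 had a lower one. The 6 h ratio minus the 3 h ratio was −1.11, a 2.16-fold difference, which is −3.71 when divided by the SD between probes of a gene for that quantity. Only 25 of 10469 genes had a lower difference. A dye bias that is the same on each array drops out of this value, whereas the time cannot be told apart from the array. EGR1 had 1 probe, so no second probe bears on its value.

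EGR2, which in Schwann cells drives myelin genes, and EGR3, known from lymphocytes and muscle spindles, stayed near 0. EGR2 (probe H200000364) had −0.14 at 3 h and 0.12 at 6 h. EGR3 (probe H200005916) had −0.27 and −0.03. Both had like differences of the times, 0.26 and 0.24, opposite in sign to that of EGR1 and below the SD between probes. EGR1 lay 0.57 above EGR2 and 0.70 above EGR3 at 3 h, and 0.80 and 0.65 below them at 6 h. EGR1 thus lay above both paralogs at 3 h and below both at 6 h.

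NR4A3 (NOR1) had the second widest swing of the set. Its measured probe (H300009299) gave −0.55 at 3 h, a 1.46-fold difference, and 0.04 at 6 h. The difference of the times was 0.59, a 1.51-fold difference and 1.97 times the SD between probes, and 305 of 10469 genes had a higher one. The other NR4A3 probe (opHsV0400003115) had no value on either array and could not be set beside it.

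NR4A1 (NUR77), whose protein can also move to mitochondria in dying lymphocytes and tumour cells, was the only member with 2 measured probes. Probe H300017466 gave −0.40 at 3 h and −0.22 at 6 h, and probe opHsV0400002433 gave −0.10 and −0.15. All 4 values were negative, and the probes lay 0.30 apart at 3 h and 0.07 apart at 6 h. Their means were −0.25 and −0.185, and the mean difference of the times was 0.065, with one probe at 0.18 and the other at −0.05. NR4A2 (NURR1), the factor required for midbrain dopamine neurons, was positive at both times. Its probe (H200006891) gave 0.31 at 3 h. At 6 h it gave 0.20, and the difference was −0.11. At 3 h NR4A2 lay 0.86 above NR4A3 and 0.56 above NR4A1. At 6 h these distances were 0.16 and 0.385.

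**Figure D2:**
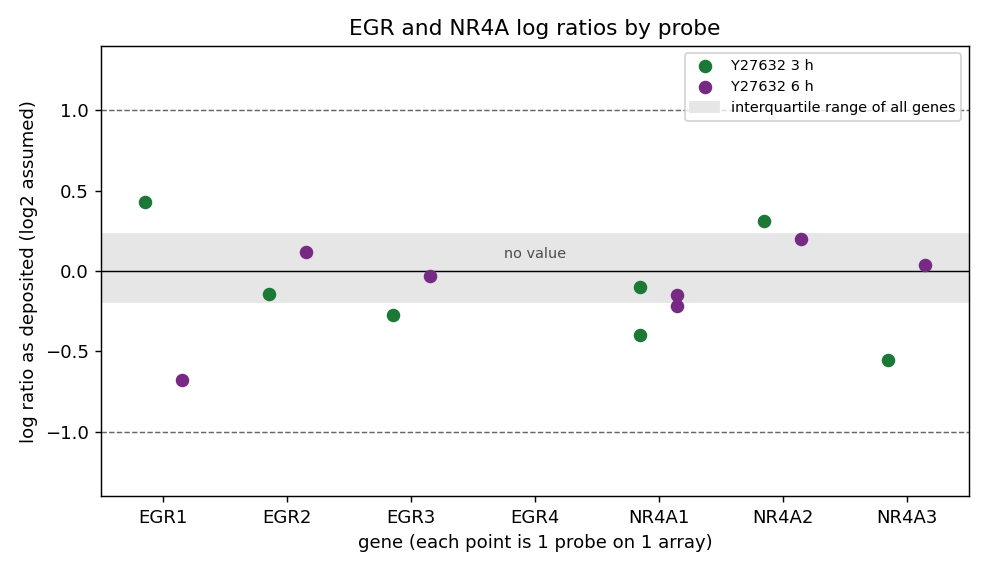
Log ratio (vertical axis, log2 assumed, sign as deposited) of every measured EGR and NR4A probe at 3 h (green) and 6 h (purple) of Y27632. The grey band is the interquartile range of all genes and dashed lines mark 1 unit. EGR1 lies above the band at 3 h (0.43) and below it at 6 h (−0.68), the 4 NR4A1 points are all negative, and EGR4 has no value.

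In the order of the ratios at 3 h, NR4A3 was lowest, followed by EGR3, NR4A1, EGR2, NR4A2 and EGR1. The gap of 0.45 between EGR2 and NR4A2 was just above the SD expected of a difference of such single-probe values (0.44), and the other neighbours lay closer than that SD. At 6 h EGR1 was lowest, 0.495 below NR4A1 (SD 0.41), and NR4A1, EGR3, NR4A3, EGR2 and NR4A2 followed with gaps of 0.07 to 0.155. In the difference of the times EGR1 was 1 unit below the next gene, NR4A2 (SD 0.42). NR4A2, NR4A1, EGR3, EGR2 and NR4A3 then followed with gaps of 0.02 to 0.33, all within that SD. Neighbours closer than their SD are thus not resolved by these probes. The gaps at 3 h and 6 h that lay little above 1 SD do not resolve them either, since the spread between arrays and cultures is left out. The wider gap of EGR1 in the difference of the times also rests on 1 probe.

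As a set, 4 of 6 measured genes were negative at 3 h and 3 of 6 at 6 h, and 2 of 6 had a negative difference. Among all genes 47.5%, 47.3% and 51.2% were negative. The medians of the set were −0.195, 0.005 and 0.15, against 0.02, 0.02 and −0.01 for all genes. The mean and the median of the set differed in sign at 6 h (mean −0.09) and for the difference (mean −0.01), with EGR1 far below the other 5 in both. No member lay at least 1 unit (2-fold in base 2) from 0 at 3 h or at 6 h, where 1.61% and 1.43% of all genes did. For the difference of the times 1 of 6 did, EGR1, against 1.2% of all genes, and 0.43% on the negative side. At 1.5-fold, the counts were 0 of 6 at 3 h (9.36% of all genes), 1 of 6 at 6 h (EGR1, 9.86%) and 2 of 6 for the difference (EGR1 and NR4A3, 5.75%). The NR4A3 difference of 0.59 lay just inside the 1.5-fold size, and the next in size, that of EGR2 at 0.26, was outside it.

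**Figure D3:**
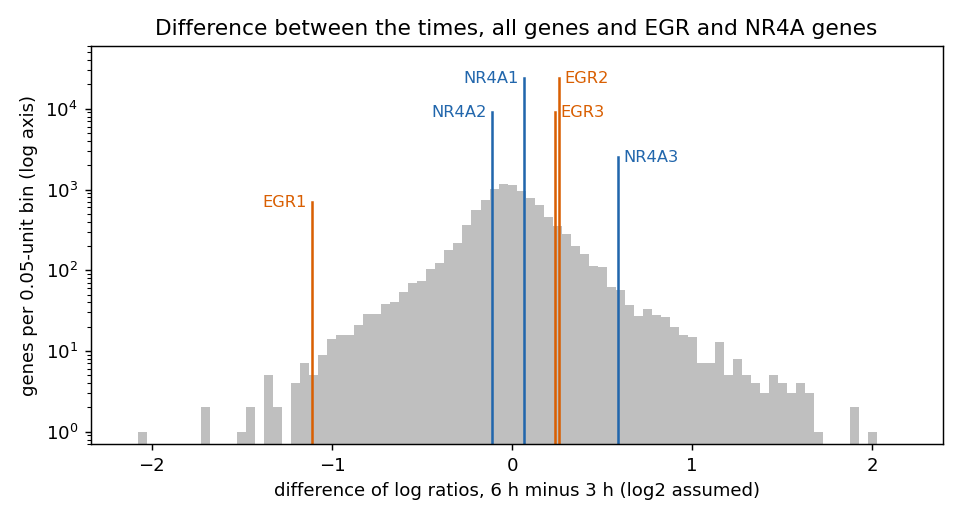
Number of genes (log axis) by the difference of their log ratios, 6 h minus 3 h (log2 assumed), for 10469 genes, with lines at the 6 measured EGR and NR4A genes (line heights carry no value). EGR1 at −1.11 lies in the sparse left tail, NR4A3 at 0.59 in the right shoulder, and the other 4 between −0.11 and 0.26.

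The genes nearest to each member were found by the Euclidean distance over the 2 ratios, among 10340 genes. Over 2 arrays such likeness is a description of position only. EGR1 had 3 genes within 0.1 of it. The nearest were the olfactory receptor gene OR51S1 (0.47 at 3 h and −0.68 at 6 h) and PIK3CG, a catalytic subunit of phosphoinositide 3-kinase (0.40 and −0.75). NR4A3 had 37 within 0.1, nearest among them the calcium release channel gene RYR2 (−0.54 and 0.04) and CEACAM4 (−0.54 and 0.03). The other 4 sat in the crowded centre, with 297 genes within 0.1 of EGR2, 316 of EGR3, 567 of NR4A1 and 520 of NR4A2. Their nearest genes matched them to within 0.01: the lipoxygenase gene ALOX15 and PPP1R3E for EGR2, AMELX and the arrestin gene ARRB2 for EGR3, MRGBP and PURB for NR4A1, and ARRDC2 and EFCAB11 for NR4A2. Ties were taken in alphabetical order.

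**Figure D4:**
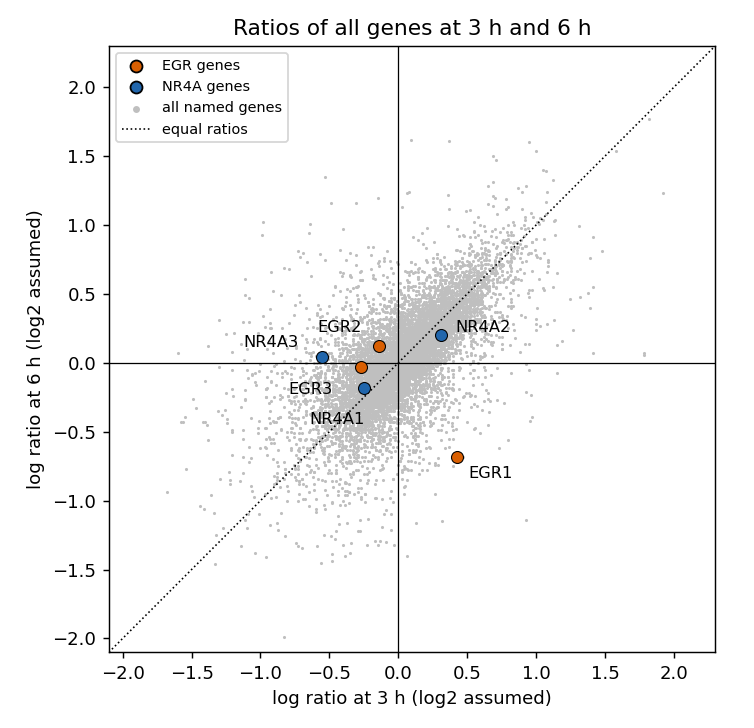
Log ratio at 3 h (horizontal axis) and at 6 h (vertical axis) of every gene with both values (grey; log2 assumed), with EGR genes in orange and NR4A genes in blue. EGR1 (0.43, −0.68) lies in a sparse part of the cloud at lower right, with 3 genes within 0.1 of it. NR4A3 (−0.55, 0.04) lies left of the centre, with 37 genes within 0.1, while the others lie in the crowded centre.

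Among the regulators upstream of EGR genes, SRF had 0.12 at 3 h and 0.15 at 6 h, and its cofactor gene ELK1 had −0.05 and −0.24. ELK4, another ternary complex factor, had 0.87 and 0.49. The actin-sensing cofactor gene MRTFA had −0.30 and −0.18. MRTFB had −1 at 3 h and no value at 6 h, and was the 1 regulator at the 2-fold size. This list of 7 had 4 of 6 negative at 3 h and 2 of 4 at 6 h, with medians of −0.175 and −0.015. With only probes measured on both arrays, which leaves out 2 genes, MRTFB among them, its 3 h median was 0.035.

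Kinases that carry growth factor and cAMP signals to these genes had a median of 0.05 at 3 h and of 0.015 at 6 h, with 7 of 16 negative each time. The RSK kinase gene RPS6KA2 had −0.83 and −0.18, its paralog RPS6KA3 had 0.27 and 0.37, and PRKACB, a catalytic subunit of protein kinase A, had 0.16 and 0.39. None of the 16 reached 1 unit at either time.

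Of the factors that feed NR4A genes, CREB1 had −0.11 at 3 h and 0.12 at 6 h. The acetyltransferase coactivators EP300 and CREBBP were positive at both times, at 0.68 and 0.67 and at 0.43 and 0.57, and ATF2 had 0.08 and 0.35. In this list 4 of 8 were negative at 3 h and 2 of 8 at 6 h, with medians of 0.005 and 0.145. No probe was annotated to CRTC2. MEF2D, which binds the NR4A1 promoter in T cells, had −0.41 and −0.23, and MEF2A had −0.28 and −0.42. HDAC7, a class IIa deacetylase that restrains MEF2 factors, had −0.82 and −0.80. MEF2 and class IIa HDAC genes were negative in 6 of 8 cases each time, with medians of −0.25 and −0.185, and none reached 1 unit.

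The EGR corepressor genes lay on opposite sides of 0. NAB1 had 0.37 at 3 h and 0.15 at 6 h. NAB2, itself induced by EGR1 in a feedback loop, had −0.37 and −0.12, so that its difference of the times was 0.25 while that of EGR1 was −1.11. Among NR4A partners, RXRA had −0.11 and −0.04 and RXRG −0.22 and −0.23. RXRB had −0.28 and 0.60, a difference of 0.88. STK11 (LKB1), a kinase that NR4A1 can hold in the nucleus, had −0.23 and −0.04. In this list of 8, 5 of 7 measured genes were negative at 3 h and 4 of 7 at 6 h, with medians of −0.18 and −0.04.

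Of genes known as targets of EGR factors, 14 of 23 were negative at 3 h, and at 6 h 15 of 21 were. Their medians were −0.10 and −0.12, and their difference had a median of 0.04. None reached 1 unit. The negative shares among all genes were 47.5% and 47.3%. At 6 h a like lean was seen in cell type markers (11 of 15) and in MEF2 and class IIa HDAC genes (6 of 8). The growth factor gene PDGFB had −0.91 and −0.42, the cell cycle inhibitor gene CDKN1C −0.60 and −0.57, and the survival gene BCL2 −0.62 and −0.05. Known targets of NR4A factors had medians of −0.02 and −0.045, with 10 of 20 and 10 of 18 negative. PPARGC1A, a coactivator of mitochondrial genes, had −0.95 and −0.67. SLC18A2, the vesicular monoamine transporter, had −0.95 and −0.18. TH, the rate-limiting enzyme of dopamine synthesis, had −0.09 and −1.30, and was the 1 target at the 2-fold size at 6 h. SLC18A2 and TH, both NR4A2 targets in dopamine neurons, had differences of 0.77 and −1.21.

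The other immediate early transcription factors were mostly negative. Of 21 measured at 3 h 19 were negative, and of 22 at 6 h 18 were, with medians of −0.26 and −0.385. Among all genes 47.5% and 47.3% were negative. FOS had −0.87 and −0.75, JUN −0.91 and −0.70, and the stress factor ATF3 −0.75 and −0.40. EGR1 at 0.43 and NR4A2 at 0.31 lay above the highest of these 21 factors at 3 h, which had 0.23. Both members had 1 probe, and these distances were smaller than the SD between probes at 3 h (0.31). HOMER1, an immediate early gene that is not a transcription factor, had 0.80 at 3 h, above both. No test of a difference between these lists was made, and the 6 measured EGR and NR4A genes are too few for a firm share. A negative lean was not particular to immediate early factors. At 3 h it was also seen in cell type markers (12 of 16), other nuclear receptors (27 of 37), WT1, SP and KLF genes (15 of 19) and the MEF2 list (6 of 8). At 6 h it was seen in cell type markers (11 of 15), EGR targets (15 of 21) and the MEF2 list (6 of 8). The kinase list (7 of 16), the CREB list (4 of 8) and the NR4A targets (10 of 20) did not show it at 3 h. Nor did the kinase list (7 of 16) and the CREB list (2 of 8) at 6 h. Immediate early genes that are not transcription factors had medians of −0.15 and −0.18, with 18 and 16 of 25 negative. The phosphatase gene DUSP1 had −0.48 and −0.58, the synaptic scaffold gene HOMER1 0.80 and 0.90, and the chemokine gene CXCL1 −0.46 and −1.28, the 1 of 25 at the 2-fold size at 6 h. PTGS2, the inducible cyclooxygenase, chosen after its values were seen, had −0.46 and 0.56. Its difference of the times was 1.02, the 1 of 25 at the 2-fold size there (1.2% of all genes), and opposite in sign to the −1.11 of EGR1. In this list 12 differences were positive and 13 were negative, among the latter that of CXCL1 at −0.82.

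**Figure D5:**
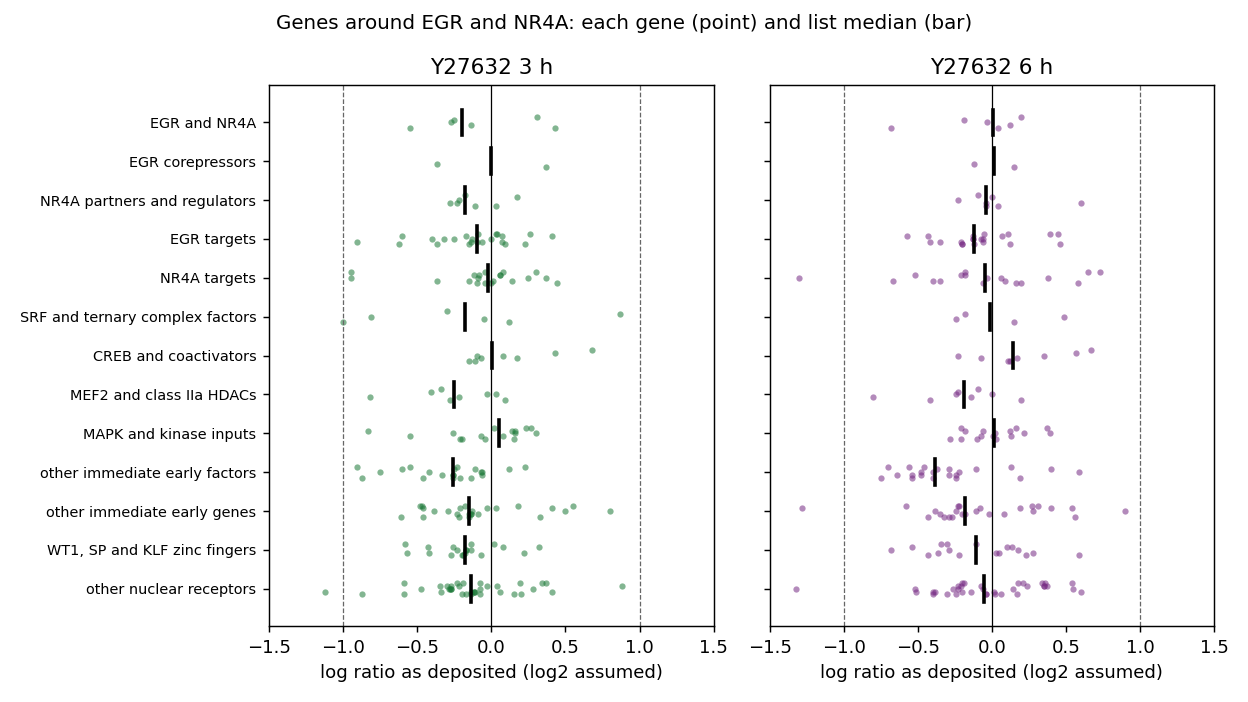
Log ratio (horizontal axis, log2 assumed, sign as deposited) of each measured gene (points) and the median (black bar) of the EGR and NR4A set and of 12 related lists, at 3 h (left) and 6 h (right). Other immediate early factors have the lowest medians at both times (−0.26 and −0.385), and the EGR and NR4A points fall on both sides of 0.

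Relatives by structure were mostly negative at 3 h and lay on both sides of 0 at 6 h. WT1, whose zinc fingers bind sites like those of EGR proteins, had −0.27 at 3 h and −0.43 at 6 h. With the SP and KLF genes it formed a list with 15 of 19 negative at 3 h and 9 of 17 at 6 h, with medians of −0.18 and −0.11. The 6 h median was −0.22 when the most extreme probe stood for each gene. SP4 had −0.58 and −0.34, SP2 −0.17 and −0.68, and KLF2, of blood flow responses in endothelium, −0.26 and −0.54. Other nuclear receptor genes had medians of −0.14 and −0.05, with 27 of 37 and 20 of 36 negative. The bile acid receptor gene NR1H4 had −1.12 at 3 h and 0.02 at 6 h. PPARD, a fatty acid receptor, had −0.03 and −1.32, and NR0B1 (DAX1), a receptor without a DNA-binding domain of the usual kind, had −0.87 and −0.40.

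Genes with the searched motifs in their promoter windows were looked at after the ratios were known, leaving out the 7 genes. Those with a CRE core, the motif of 4 members, had a median of 0.06 at 3 h (3242 genes, 41.3% negative) and of 0.07 at 6 h (3231 genes, 40.6% negative). Those with the GC box GGGCGG, also found in 4 members, had 0.035 (6166 genes) and 0.04 (6144 genes). Those with a CArG box had a median of 0.01 at 3 h and of −0.02 at 6 h (151 genes each). Those with a CArG box and a CRE core in the same window, as in EGR1 and EGR2, had 0.095 (38 genes, 31.6% negative) and 0.01 (37 genes, 43.2% negative), with a median difference of −0.065 over 36 genes. Of the motifs that no member window held, the EGR site GCGTGGGCG marked genes with medians of 0.06 (140 genes, 36.4% negative) and −0.0075 (136 genes, 50.7% negative), and genes with the other EGR site GCGGGGGCG had 0.01 (881 genes) and 0.02 (869 genes). Genes with the NR4A element AAAGGTCA had −0.005 and 0.04 (99 genes each), and those with the full CRE had 0.05 at both times (298 genes each). Those with TATAAA had −0.01 at 3 h (988 genes, 51% negative) and −0.04 at 6 h (972 genes, 53.2% negative). All genes with a promoter window had 0.03 at both times (8676 and 8610 genes), with 46.1% and 45.7% negative, and each of the medians given here lay within 0.1 of it. A motif in a window does not show that the gene is a target.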

How the data were processed

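Two-channel oligonucleotide arrays compared Y27632-treated with untreated 293T cells at 3 h and 6 h, 1 array per time. Per the labels' protocols, RNA was extracted with ISOGEN and amplified by an amino allyl method. The authors' deposited table holds 1 log value per probe and array for 24267 probes, with 2 decimals and a median of 0 per array, taken here as log2 ratios. For the log base, ratio direction, background correction and normalization, the sources used here give nothing. In base 10, 1 SD of all probes at 3 h would be 2.39-fold, against 1.30-fold in base 2. Values were missing for 15.5% and 16.2% of probes.

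The platform annotation named 13395 probes with 1 gene each and 10872 with none. Of these symbols, 10822 were current in RefSeq (GRCh38.p14), 2446 were updated by a unique synonym and 127 kept. A gene's value is the mean over its probes. The size counted was 1 log unit, with a 1.5-fold size beside it. Named genes were the 7 members, in each related list the 3 with the largest absolute mean ratio and any gene at 1 unit on either array, 10 fixed partners or regulators, and the 2 genes nearest to each member without placeholder symbols. PTGS2 was added outside these rules, after its values were seen. The members and lists were chosen with earlier results of these data known. Alternatives were the probe farthest from 0, median centring, scaling to one SD, probes measured on both arrays, means, and other log bases and signs. Python 3.11.15 with pandas 2.3.3 was used, and gene averaging and counting were tested on simulated data.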

Additional observations from a re-analysis of the deposited data

Results flagged for a closer look

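Of 58 named genes with a value at both times, 13 had opposite signs at the 2 times, which are single arrays, so the differences were not tested. The share of all genes with opposite signs is not given here, so this count has no background beside it. Some of the ratios lay closer to 0 than the SD between probes, among them both of EGR2, both of CREB1 and the 6 h ratio of NR4A3. Each of the 13 genes is given as the difference of the log ratios, 6 h minus 3 h. Among the EGR and NR4A genes these were EGR1 at −1.11, NR4A3 at 0.59 and EGR2 at 0.26. PTGS2, chosen after its values were seen, had 1.02. Among partners, regulators and relatives they were RXRB at 0.88, CREB1 at 0.23 and NR1H4 at 1.14, the last with a 6 h ratio of 0.02. The other 6 were named for lying nearest to EGR1, EGR2 or NR4A3 and so follow from the choice. They were OR51S1 and PIK3CG, both at −1.15, ALOX15 at 0.26, PPP1R3E at 0.255, RYR2 at 0.58 and CEACAM4 at 0.57.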

How the results depend on the processing

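No paired analysis was possible because each time has 1 array. All values of the 6 measured EGR and NR4A genes moved by less than the SD between probes under the probe farthest from 0, median centring, scaling to one SD and the restriction to probes measured on both arrays. These alternatives had little room to move a value. Only NR4A1 had 2 measured probes, so the choice of probe could not change the other genes. The restriction left the measured probes of every member as they were. Centring moved each 3 h and 6 h ratio by 0.02. Turning the sign, which the unstated direction allows, made EGR1 −0.43 at 3 h, 0.68 at 6 h and 1.11 for the difference of the times. It made NR4A3 0.55 at 3 h and −0.59 for the difference, EGR2 −0.26 for the difference, EGR3 0.27 at 3 h and −0.24 for the difference, NR4A1 0.25 and 0.185 at 3 h and 6 h, and NR4A2 −0.31 and −0.20. With natural logarithms the EGR1 difference would be 3.03-fold. In base 10 the EGR1 sizes would be 2.69-fold at 3 h, 4.79-fold at 6 h and 12.9-fold for the difference. NR4A3 would be 3.55-fold at 3 h and 3.89-fold for the difference, EGR2 1.38-fold and 1.82-fold, EGR3 1.86-fold and 1.74-fold, NR4A1 1.78-fold at 3 h and 1.53-fold at 6 h, and NR4A2 2.04-fold and 1.58-fold. With means in place of medians, the EGR and NR4A set had −0.0783 at 3 h and −0.0108 for the difference, CREB and coactivator genes 0.12 at 3 h, immediate early genes that are not transcription factors −0.066 at 6 h, and other nuclear receptors 0.12 for the difference. With probes measured on both arrays, the SRF list had a median of 0.035 with 2 negative genes at 3 h, since fewer genes entered. With the probe farthest from 0, the WT1, SP and KLF list had −0.22 at 6 h, and the cause was not tested. At 1.5-fold, 1012 genes were counted at 3 h, 1057 at 6 h and 602 for the difference, against 174, 153 and 126 at 2-fold. Counted by probe, named or not, these were 442, 451 and 283. In all, 446 of 486 comparisons with an alternative stayed within a set tolerance. It was the SD between probes for gene values, 0.1 for list medians and a ratio of 1.5 for counts. Small values stayed within it even with the sign turned, in 6 of 18 cases. Many other comparisons could hardly move, so the total is not a measure of reliability. The spot brightness was not used here, so the signal over background of each probe is unknown and the single array per time limits every value.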
